A study of Mus musculus with 7 samples.

Results

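The 36 genes described here encode aminoacyl-tRNA synthetases, the enzymes that attach each amino acid to its transfer RNA before the ribosome uses it. They were chosen by name from the 32286 features of the count matrices, 20 for synthetases that work in the cytosol and 16 for those that work in mitochondria, the mitochondrial ones being told apart by the ending 2 of their symbols. All 36 were found, Mars1 under its earlier symbol Mars, and all passed a minimum mean of 1 CPM, a gene's UMI count per 1000000 UMIs of its library, over the 7 libraries.

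Each synthetase recognises an amino acid and the tRNAs that belong to it, and together they supply the ribosome with charged tRNA. Most cytosolic and mitochondrial synthetases are encoded by separate nuclear genes, whereas Gars and Kars each supply both compartments. Several cytosolic enzymes (Dars, Eprs, Iars, Kars, Lars, Mars1, Qars and Rars) sit in a multi-synthetase complex held together by the scaffold proteins Aimp1, Aimp2 and Eef1e1, and a number of cytosolic synthetase genes are known targets of ATF4, a transcription factor of the amino acid response. Thymocytes that have passed selection on a pre-TCR or a γδ TCR grow and divide, which takes much protein synthesis.

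The study used droplet-based single-cell RNA sequencing to compare CD4- and CD8-negative (double negative, DN) thymocytes around the split between the αβ and γδ T cell lineages. From WT C57BL/6 mice of 6 to 8 weeks, with CD4 and CD8 positive cells removed by magnetic beads, 5 libraries held DN3a cells, which have not yet been selected, DN3b γδ− and DN4 γδ− cells on the αβ path, and DN3b γδ+ and DN4 γδ+ cells on the γδ path. A further 2 libraries held DN3 γδ− and DN3 γδint cells of mice labelled Lat-/-TCRd-H2BEGFP (Lat-KO below), which lack the TCR signalling adaptor LAT and carry a fluorescent reporter in the Trdc locus. Thymi of many animals were pooled for each sort, and every library was spiked with 500 splenic B cells. CD71, a receptor that dividing cells display, told DN3b γδ− cells from DN3a cells in the sort and was part of the DN4 γδ− gate. The study's description of the γδ+ gates does not name it. The part of this sorting in the ratios to DN3a was not tested.

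Each group is 1 library, so no difference below has a replicate check, no p-value is given, and every interval covers the counting error of unique molecular identifiers (UMIs) only. UMIs were summed per library over barcodes with at most 1 UMI of the B cell genes Cd79a, Cd79b and Ms4a1, here called thymocyte barcodes. They numbered 5274 to 18515 per library, with 37820685 to 338698944 UMIs and a median of 5737.5 to 18506 UMIs per barcode, the 3 WT libraries DN3b γδ−, DN4 γδ− and DN3b γδ+ being the deepest. Lat stood at 357 to 648 CPM in the WT libraries and at 4.83 and 0.899 CPM in Lat-KO γδ− and γδint. The T cell markers Cd3d, Cd3e, Cd3g, Lck and Cd247 summed to 1901 to 9329 CPM in thymocyte barcodes and to 171 to 294 CPM in the spiked B cell barcodes (53 to 226 per library), myeloid markers to 99.4 to 192 CPM, NK markers to 0 to 13.7 CPM and haemoglobin genes to 0.149 CPM in DN3a and up to 169.6 CPM elsewhere, whose part in the differences below was not tested. Ribosomal protein genes took 18.1% of the UMIs of Lat-KO γδint, and 19.99% of those of its B cells, against 27.6% to 33.7% in the thymocyte barcodes of the other 6 libraries, so Lat-KO γδint stands apart. Any pair of libraries shared 18 to 93 barcode sequences, at most 0.713% of a library.

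A search of the promoters, which the RefSeq table holds for 27 of the 36 genes, was made with 4 motifs on both strands of the 250 bases before the transcription start. The amino acid response element, searched as TGATGNAA, was present in 3 of these 27 genes, Gars and Tars among them, and in 3.45% of all 32851 promoters. The stretches of Gars and Tars are printed 5′ to 3′ on the strand of the gene (build GRCm38.p6) because they hold the motif close to the start, and the capitals mark the motif, which reads on the opposite strand in each.
Gars, chr6:55037751-55038000, + strand, 250 bases before the start: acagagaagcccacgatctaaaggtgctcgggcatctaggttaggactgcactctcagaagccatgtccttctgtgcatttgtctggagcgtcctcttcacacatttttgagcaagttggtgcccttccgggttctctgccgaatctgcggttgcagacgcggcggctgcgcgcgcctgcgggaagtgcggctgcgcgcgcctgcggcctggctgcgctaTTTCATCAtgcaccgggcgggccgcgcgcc
Tars, chr15:11399666-11399908, − strand, 243 bases that end 8 bases before the start: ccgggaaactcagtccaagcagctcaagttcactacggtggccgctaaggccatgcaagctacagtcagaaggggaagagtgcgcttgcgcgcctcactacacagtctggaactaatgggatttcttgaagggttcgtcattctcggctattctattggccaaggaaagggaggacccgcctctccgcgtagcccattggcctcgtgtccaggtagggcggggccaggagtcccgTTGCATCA
The motif lay 30 to 23 bases before the start of Gars and 15 to 8 before that of Tars. The E-box CACGTG was found in 3 of the 27, Farsb and Iars among them (6.02% of all promoters), the ETS letters CCGGAAGT in Farsa and Mars1 (2.88%), and the palindromic NRF1 motif of 10 bases in none of the 27 (0.782%). A match of letters is a description and was not tested as a binding site.

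Cytosolic synthetase transcripts were more abundant in 5 of the 6 other libraries than in DN3a, and most so in DN3b γδ− and Lat-KO γδint. Summed over the 20 genes they came to 922 CPM for DN3a, 1715 for DN3b γδ−, 1386 for DN4 γδ−, 1418 for DN3b γδ+ and 829 for DN4 γδ+, and to 1200.1 in Lat-KO γδ− and 1795 in Lat-KO γδint. In CPM, DN4 γδ+ was the lowest of the 7 and Lat-KO γδint the highest, just above DN3b γδ−, but after the TMM scaling described below DN3b γδ−, DN4 γδ− and DN3b γδ+ all lay above Lat-KO γδint. Counted per barcode, DN3b γδ− held 31.4 cytosolic synthetase UMIs against 7.27 in DN3a, with 26.1 for DN4 γδ−, 22.5 for DN3b γδ+, 6.65 for DN4 γδ+, 9.33 in Lat-KO γδ− and 12.9 in Lat-KO γδint. The spiked B cells, which are the same kind of cell in every library, held 2.50 to 3.72 UMIs per barcode, the lowest value being that of DN3b γδ−.

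The CPM of the B cells was not constant either. Their cytosolic synthetase sum was 680.1 (596 to 773) CPM in DN3a and 727 (652 to 808) in DN4 γδ+, and between 877 and 1160.1 CPM in the other 5 libraries, the highest being Lat-KO γδint. As log2 ratios of the sums to DN3a, each with its exact 95% interval in parentheses, thymocytes against B cells were 0.90 (0.88 to 0.91) against 0.44 (0.22 to 0.66) for DN3b γδ−, 0.59 (0.57 to 0.60) against 0.45 (0.18 to 0.71) for DN4 γδ−, and 0.62 (0.61 to 0.63) against 0.37 (0.08 to 0.66) for DN3b γδ+. For DN4 γδ+ they were -0.15 (-0.17 to -0.14) against 0.10 (-0.15 to 0.34), for Lat-KO γδ− 0.38 (0.36 to 0.40) against 0.52 (0.30 to 0.75) and for Lat-KO γδint 0.96 (0.94 to 0.98) against 0.77 (0.52 to 1.02). Of these 6, only in DN3b γδ− did the thymocyte interval lie wholly above that of the B cells, and in DN4 γδ+ and Lat-KO γδ− the thymocyte ratio was the smaller value. All 6 ratios share the DN3a library, and the part of a library effect in them was not tested.

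**Figure D1:**
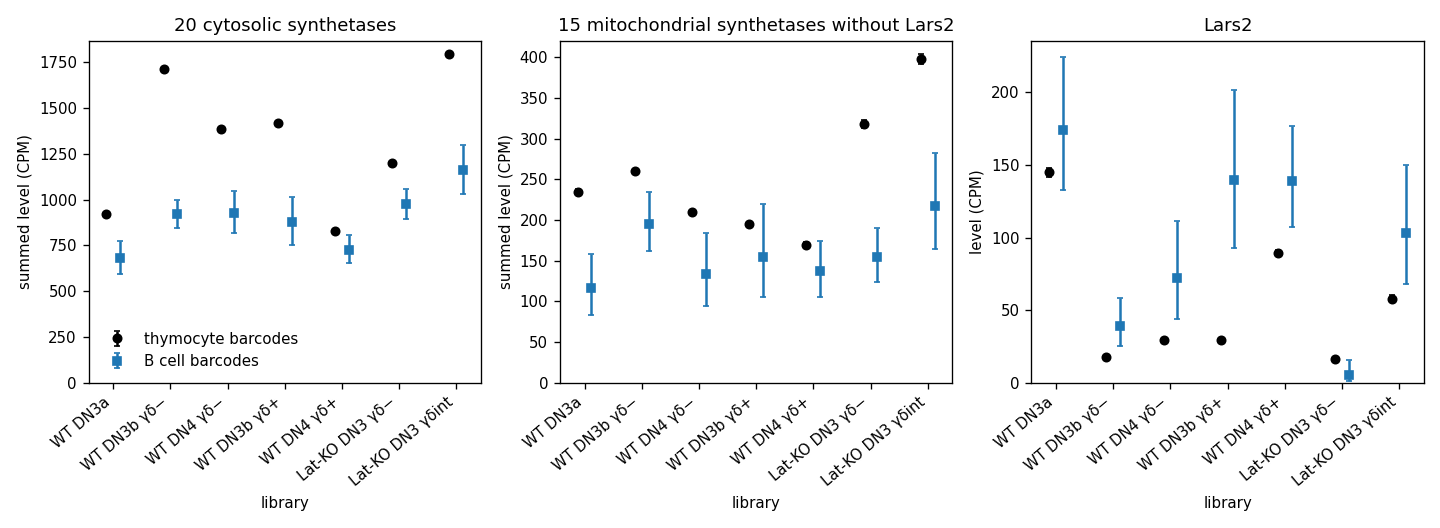
Summed level in CPM of the 20 cytosolic synthetases, of the 15 mitochondrial synthetases without Lars2, and of Lars2 alone, in each of the 7 libraries; circles are thymocyte barcodes, squares the spiked B cell barcodes, and bars exact 95% Poisson intervals. In CPM the cytosolic sum was highest in Lat-KO γδint (not after TMM) and DN3b γδ− and lowest in DN4 γδ+, and Lars2 differed between libraries in B cells as well as in thymocytes.

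Gene by gene, the median log2 ratio of the 20 cytosolic synthetases to DN3a was 0.88 in DN3b γδ−, where the median of all genes kept was -0.19. Past 2-fold higher were 9 of the 20, against 9.65% of all genes, and none was past 2-fold lower, against 20.9% of all genes. In DN4 γδ− the median was 0.70 (all genes -0.31) and 1 of 20, Gars, was past 2-fold higher (7.81% of all genes) and none past 2-fold lower (23.9%). In DN3b γδ+ it was 0.72 (all genes -0.17) with 3 of 20, Gars, Mars1 and Aars, past 2-fold higher (11.1%) and none lower (19.8%). DN4 γδ+ had a median of -0.07 (all genes -0.03) and no synthetase past 2-fold in either direction, against 11% of all genes higher and 10.4% lower. Lat-KO γδ− had a median of 0.54 (all genes 0.23) and again none past 2-fold higher (4.43%) or lower (2.09%), while Lat-KO γδint had 1.05 (all genes 0.43) and 11 of 20 past 2-fold higher (13.9%) and none lower (5.73%). Lat-KO γδint is also the library with the low share of ribosomal protein UMIs, and the part of that share in these ratios was not tested.

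TMM, a scaling that leaves the most extreme genes out when it sets the libraries to a common size, added 0.36, 0.36 and 0.32 to every log2 ratio to DN3a of DN3b γδ−, DN4 γδ− and DN3b γδ+, and 0.02, -0.17 and -0.42 to those of DN4 γδ+, Lat-KO γδ− and Lat-KO γδint. Under it the count past 2-fold higher became 16, 11 and 10 of 20 in the first 3, against 17.4%, 14.2% and 17.4% of all genes scaled alike, and 3 of 20 in Lat-KO γδint, against 4.7%. Against DN3a it turned Qars in DN4 γδ− and DN3b γδ+, Dars in DN3b γδ− and Yars in DN4 γδ+ from below to above 0, and it turned Iars and Kars in Lat-KO γδ− and Dars, Lars and Nars in Lat-KO γδint from above to below 0. No other cytosolic gene changed side against DN3a.

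**Figure D2:**
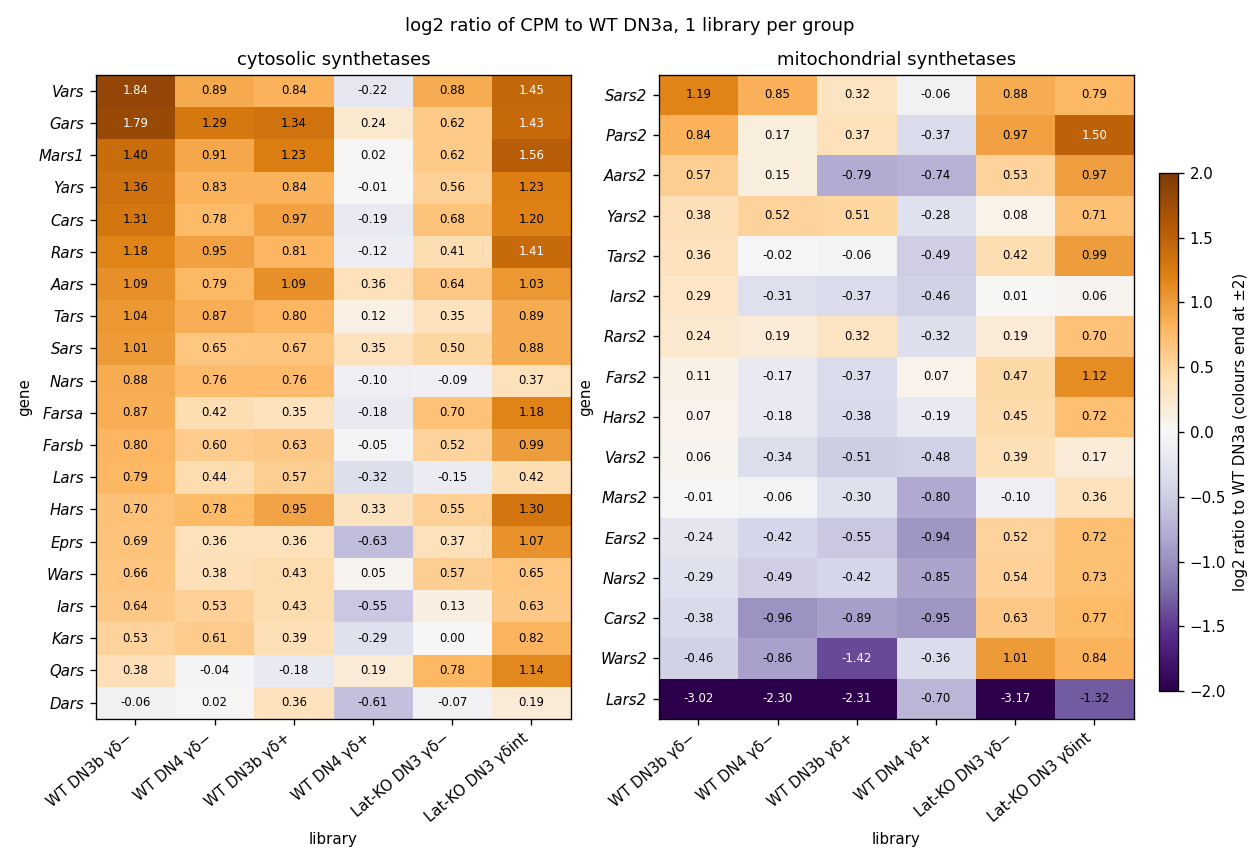
log2 ratio of CPM to WT DN3a for each of the 36 synthetase genes (rows, ordered by the ratio in DN3b γδ−) in the other 6 libraries (columns); orange is higher and purple lower than in DN3a, and the colours end at 2 in either direction. The 3 libraries DN3b γδ−, DN4 γδ− and DN3b γδ+ are mostly orange for the cytosolic genes, with Dars and Qars the palest in the first 2 columns (Dars in the first and Qars in the next change side under TMM), whereas Lars2 is the darkest purple cell of the mitochondrial genes in 5 of the 6 columns.

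Among the cytosolic genes the widest differences from DN3a in DN3b γδ− belonged to Gars, Vars and Mars1, which charge tRNA with glycine, valine and methionine. Gars was measured at 38.5 CPM in DN3a, 133 and 94.3 in the αβ pair DN3b γδ− and DN4 γδ−, 97.1 and 45.5 in the γδ pair DN3b γδ+ and DN4 γδ+, and 59.0 and 103 in Lat-KO γδ− and γδint. Its log2 ratio to DN3a was 1.79 (1.72 to 1.85) in DN3b γδ−, 1.29 (1.23 to 1.36) in DN4 γδ− and 1.34 (1.27 to 1.40) in DN3b γδ+, and 0.24 (0.16 to 0.32) in DN4 γδ+. Vars levels were 47.8 CPM before selection (DN3a), 171 then 88.9 along the αβ path (DN3b γδ−, DN4 γδ−), 85.5 then 41.0 along the γδ path (DN3b γδ+, DN4 γδ+), and 88.1 and 131 without LAT (γδ−, γδint). DN3b γδ− exceeded every other library for this gene, by a log2 ratio of 1.84 (1.78 to 1.90) to DN3a. Mars1 stood at 20.4 CPM for DN3a, 53.8 for DN3b γδ− against 47.9 for DN3b γδ+, 38.2 for DN4 γδ− against 20.7 for DN4 γδ+, and 31.2 for Lat-KO γδ− against 60.2 for Lat-KO γδint. In CPM it was highest in Lat-KO γδint (in DN3b γδ− after TMM), with a log2 ratio of 1.56 (1.46 to 1.67) to DN3a, and DN4 γδ+ lay at the DN3a level.

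A second group, Yars, Cars, Rars, Aars, Tars and Sars, which charge tyrosine, cysteine, arginine, alanine, threonine and serine, was also past 2-fold higher in DN3b γδ−. Yars had 14.5 CPM in DN3a, 37.1 and 25.7 in the αβ pair DN3b γδ− and DN4 γδ−, 26.0 and 14.4 in the γδ pair DN3b γδ+ and DN4 γδ+, and 21.3 and 34.1 in Lat-KO γδ− and γδint. For Cars the levels were 11.6 CPM before selection (DN3a), 28.7 then 19.9 along the αβ path (DN3b γδ−, DN4 γδ−), 22.7 then 10.2 along the γδ path (DN3b γδ+, DN4 γδ+), and 18.6 and 26.7 without LAT (γδ−, γδint). Both were at or below the DN3a level in DN4 γδ+, where their log2 ratios were -0.01 and -0.19. Rars, a member of the multi-synthetase complex, stood at 53.6 CPM for DN3a, 122 for DN3b γδ− against 93.8 for DN3b γδ+, 104 for DN4 γδ− against 49.1 for DN4 γδ+, and 71.1 for Lat-KO γδ− against 142 for Lat-KO γδint. Between the Lat-KO libraries Rars in γδint lay at the 2-fold limit, with an interval of the log2 ratio of 0.94 to 1.06. The alanine enzyme Aars was at 13.9 CPM in DN3a, 29.6 and 24.2 in the αβ pair DN3b γδ− and DN4 γδ−, 29.6 and 17.9 in the γδ pair DN3b γδ+ and DN4 γδ+, and 21.7 and 28.5 in Lat-KO γδ− and γδint. Tars was at 26.0 CPM before selection (DN3a), 53.5 then 47.4 along the αβ path (DN3b γδ−, DN4 γδ−), 45.2 then 28.3 along the γδ path (DN3b γδ+, DN4 γδ+), and 33.2 and 48.0 without LAT (γδ−, γδint). Serine charging by Sars gave 65.1 CPM for DN3a, 131 for DN3b γδ− against 104 for DN3b γδ+, 102 for DN4 γδ− against 83.2 for DN4 γδ+, and 91.8 for Lat-KO γδ− against 119.9 for Lat-KO γδint. In DN4 γδ+, Aars and Sars lay above DN3a, where their log2 ratios to DN3a were 0.36 (0.23 to 0.50) and 0.35 (0.29 to 0.42).

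Nars, Farsa, Farsb, Lars, Hars and Eprs were higher in DN3b γδ− than in DN3a by less than 2-fold. The asparagine enzyme Nars was at 73.7 CPM in DN3a, 136 and 125 in the αβ pair DN3b γδ− and DN4 γδ−, 125 and 68.8 in the γδ pair DN3b γδ+ and DN4 γδ+, and 69.5 and 95.2 in Lat-KO γδ− and γδint, and is among the 3 cytosolic genes, with Lars and Dars, that were lower in Lat-KO γδ− than in DN3a. Farsa and Farsb encode the α and β subunits of 1 phenylalanine enzyme. Farsa was found at 42.3 CPM before selection (DN3a), 77.3 then 56.4 along the αβ path (DN3b γδ−, DN4 γδ−), 53.7 then 37.3 along the γδ path (DN3b γδ+, DN4 γδ+), and 68.6 and 95.7 without LAT (γδ−, γδint). Farsb was found at 40.8 CPM for DN3a, 71.0 for DN3b γδ− against 63.1 for DN3b γδ+, 61.9 for DN4 γδ− against 39.5 for DN4 γδ+, and 58.5 for Lat-KO γδ− against 81.2 for Lat-KO γδint. In DN3b γδ+ the α subunit had a log2 ratio to DN3a of 0.35 (0.28 to 0.41) and the β subunit one of 0.63 (0.56 to 0.70), and these intervals did not overlap. Lars, for leucine, had levels of 39.9 CPM in DN3a, 69.1 and 54.0 in the αβ pair DN3b γδ− and DN4 γδ−, 59.4 and 31.98 in the γδ pair DN3b γδ+ and DN4 γδ+, and 35.9 and 53.3 in Lat-KO γδ− and γδint. Hars, for histidine, was at 32.9 CPM before selection (DN3a), 53.3 then 56.3 along the αβ path (DN3b γδ−, DN4 γδ−), 63.5 then 41.3 along the γδ path (DN3b γδ+, DN4 γδ+), and 48.3 and 80.8 without LAT (γδ−, γδint). Eprs, a fused enzyme for glutamate and proline in the complex, was at 144 CPM for DN3a, 232 for DN3b γδ− against 185 for DN3b γδ+, 185 for DN4 γδ− against 92.9 for DN4 γδ+, and 186 for Lat-KO γδ− against 302 for Lat-KO γδint. Hars was higher in DN4 γδ+ than in DN3a by 0.33 (0.24 to 0.42) on the log2 scale and Eprs lower at -0.63 (-0.68 to -0.59), the lowest ratio of a cytosolic gene in that library. Hars and Hars2 overlap at their starts on opposite strands, and how the counting used strand is not given in the sources used here.

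Wars, Iars, Kars, Qars and Dars differed least from DN3a in DN3b γδ−. Wars, for tryptophan, was at 21.8 CPM in DN3a, 34.5 and 28.4 in the αβ pair DN3b γδ− and DN4 γδ−, 29.3 and 22.5 in the γδ pair DN3b γδ+ and DN4 γδ+, and 32.2 and 34.3 in Lat-KO γδ− and γδint. Iars, for isoleucine, was at 29.01 CPM before selection (DN3a), 45.1 then 42.0 along the αβ path (DN3b γδ−, DN4 γδ−), 39.0 then 19.8 along the γδ path (DN3b γδ+, DN4 γδ+), and 31.8 and 45.0 without LAT (γδ−, γδint). Kars, for lysine in both compartments, showed 50.7 CPM for DN3a, 73.1 for DN3b γδ− against 66.4 for DN3b γδ+, 77.2 for DN4 γδ− against 41.4 for DN4 γδ+, and 50.8 for Lat-KO γδ− against 89.3 for Lat-KO γδint. Kars was level between DN3a and Lat-KO γδ− and higher in γδint, with a log2 ratio of 0.81 (0.74 to 0.89) between the Lat-KO libraries. Qars, for glutamine, was at 44.5 CPM in DN3a, 57.9 and 43.3 in the αβ pair DN3b γδ− and DN4 γδ−, 39.3 and 50.9 in the γδ pair DN3b γδ+ and DN4 γδ+, and 76.5 and 98.1 in Lat-KO γδ− and γδint. Its lowest library was DN3b γδ+, where the log2 ratio to DN3a was -0.18 (-0.24 to -0.11) but lay above 0 after TMM, and both Lat-KO libraries lay above every WT library in CPM, though DN3b γδ− was the highest after TMM. Dars, for aspartate, was at 111 CPM before selection (DN3a), 106 then 112 along the αβ path (DN3b γδ−, DN4 γδ−), 142 then 72.5 along the γδ path (DN3b γδ+, DN4 γδ+), and 106 and 126 without LAT (γδ−, γδint). Dars had a log2 ratio to DN3a of -0.06 (-0.10 to -0.02) in DN3b γδ− (above 0 after TMM) and 0.36 (0.32 to 0.40) in DN3b γδ+, its highest library.

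By groups within the cytosolic set, the 12 genes listed as ATF4-responsive had a median log2 ratio to DN3a of 1.03 for DN3b γδ−, 0.77 for DN4 γδ− and 0.78 for DN3b γδ+, with all 12 above 0 in each, and the other 8 cytosolic genes 0.75, 0.60 and 0.51, with 7 of 8 above 0 in each. Of all genes 41.5%, 35.99% and 42.0% lay above 0. In Lat-KO γδint the order was the other way, 0.96 for the 12 and 1.16 for the 8. The 8 genes of the multi-synthetase complex had medians of 0.66, 0.48 and 0.41 in the same 3 WT libraries and 0.94 in Lat-KO γδint. The 2 structural classes of synthetase gave 0.99 for class I and 0.88 for class II in DN3b γδ−, each with 10 genes, the fused enzyme Eprs being counted in class I only. The differences between these groups were not tested.

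On the γδ path, DN3b γδ+ is the counterpart of DN3b γδ− on the αβ path, and this comparison does not involve DN3a. CD71 is named for the gate of DN3b γδ− but not for that of DN3b γδ+. The median log2 ratio of DN3b γδ+ over DN3b γδ− was -0.24 for the cytosolic genes (all genes -0.04). Above 0 were 3 of 20, against 46.8% of all genes, and TMM moved each ratio by -0.04. None was past 2-fold higher (7.08% of all genes). Past 2-fold lower was Vars alone of the 20, against 4.2% of all genes, at -1.004 (-1.03 to -0.98), an interval that reached both sides of the limit, and the next were Qars at -0.56 (-0.60 to -0.52), Farsa at -0.52 (-0.56 to -0.49) and Yars at -0.51 (-0.56 to -0.47). Dars at 0.42 (0.40 to 0.45) and Hars at 0.25 (0.22 to 0.29) were higher in DN3b γδ+, and Aars at 0.00 (-0.04 to 0.05) was level (below 0 after TMM). In the B cells of these libraries the ratio of the cytosolic sums was -0.07 (-0.32 to 0.18), against -0.27 (-0.28 to -0.27) in thymocytes. Among the barcodes with few cell cycle UMIs, 105 in DN3b γδ+ and 127 in DN3b γδ−, the median was 0.22. The lower and upper interval ends of the 20 genes had medians of -0.59 and 0.90. The ratio of the sums was 0.03 (-0.11 to 0.16), so no direction was detectable at this depth.

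**Figure D3:**
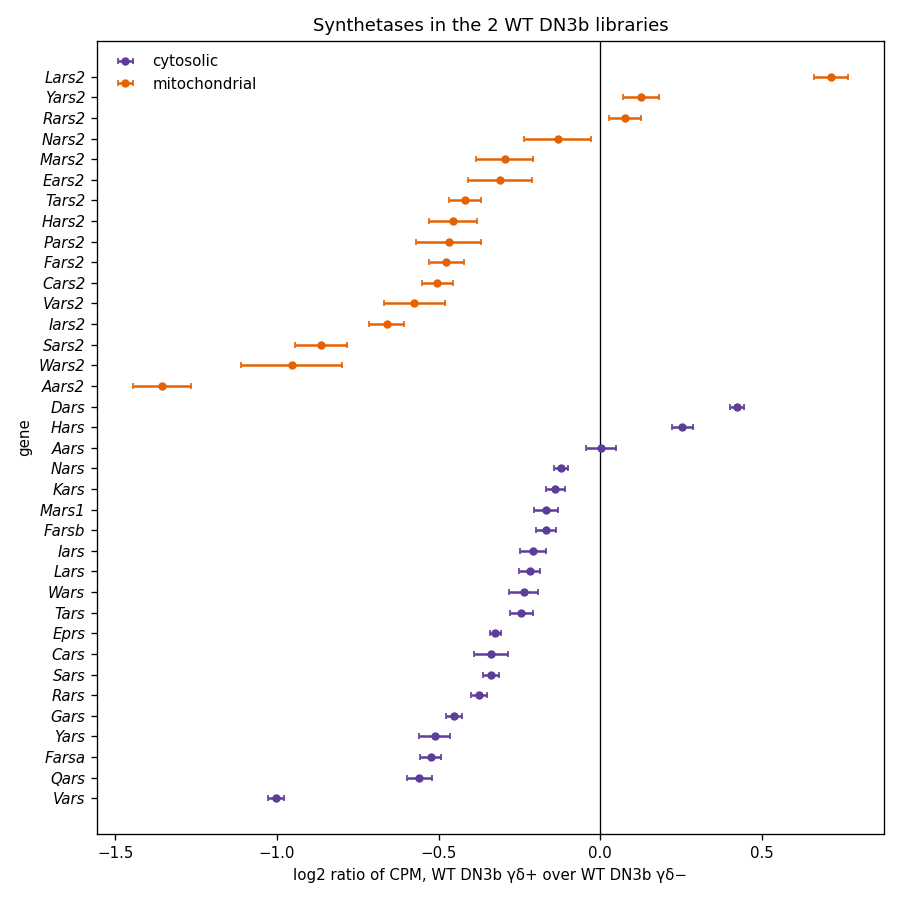
log2 ratio of CPM between the WT libraries DN3b γδ+ (numerator) and DN3b γδ− (denominator) for each synthetase gene, with exact 95% intervals for counting error; purple is cytosolic and orange mitochondrial. Vars is the lowest cytosolic gene and Aars2 the lowest mitochondrial one, while Dars, Hars and Lars2 lie above 0.

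In the Lat-KO mice, γδint over γδ− gave a cytosolic median of 0.53 (all genes 0.17), with 20 of 20 above 0 against 65.2% of all genes (19 of 20 after TMM), Rars alone past 2-fold higher against 5.23% of all genes, and none past 2-fold lower against 3.97%. Mars1 at 0.95 (0.85 to 1.04), Gars at 0.81 (0.74 to 0.88) and Kars at 0.81 (0.74 to 0.89) followed, and Wars at 0.09 (-0.02 to 0.19) was the lowest of the 20. TMM moved each ratio by -0.25, which took Wars below 0 and Rars under 2-fold. B cells of these libraries had a ratio of the sums of 0.25 (0.05 to 0.46) against 0.58 (0.56 to 0.60) in thymocytes, whose interval lay above. The Lat-KO libraries were sorted as DN3 and the WT pair as DN3b, so the ratio of 0.53 here and that of -0.24 in the WT DN3b libraries are given side by side and their difference was not tested.

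The libraries differed in the share of barcodes with many cell cycle UMIs, and within each library cytosolic synthetase transcripts were more abundant in the cycling barcodes. Each barcode with at least 3000 UMIs was thinned to 3000 and classed by its UMIs of 20 cell cycle genes such as Mki67 and Mcm5. It was non-cycling with at most 1, cycling with at least 4 and near the limit in between. The shallower thymocyte barcodes, 214 (Lat-KO γδ−) to 1431 (DN4 γδ+) per library, were not classed but count in the total of the shares that follow. Cycling barcodes made up 13.8% of thymocyte barcodes in DN3a, 93.8% for DN3b γδ−, 89.6% for DN4 γδ−, 89.2% for DN3b γδ+, 20.9% in DN4 γδ+, 14.5% in Lat-KO γδ− and 47.3% in Lat-KO γδint. Near the limit lay 289 (DN4 γδ−) to 2214 (DN3a) barcodes per library. The study scored cell cycle phases by another method and found smaller shares in S and G2/M phases for Lat-KO γδint and DN3b γδ+. The median log2 ratio of cycling over non-cycling barcodes was 0.35 to 0.77 over the 20 cytosolic genes across the 7 libraries, with 18 or 19 of 20 above 0 in each against 37.8% to 43.7% of all genes, where the median of all genes was -0.22 to -0.09. Cytosolic intervals lay wholly above 0 for 8 of 20 genes in DN3b γδ+, 11 in DN4 γδ− and 16 to 18 in the other libraries. The 16 mitochondrial genes had medians of -0.10 to 0.15.

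In DN3a the cytosolic sum went from 826 CPM in barcodes with 0 to 1 cycle UMIs to 1381 CPM in those with 10 or more, and in DN4 γδ+ from 690.4 to 1044 CPM. Lat-KO γδint was at 1482 and 2103 CPM, above each other library in both classes in CPM, but below DN3b γδ−, DN4 γδ− and DN3b γδ+ in both once the libraries are scaled by TMM. Gars in cycling over non-cycling barcodes had a log2 ratio of 0.997 in DN3a and 0.99 in DN4 γδ+, Mars1 0.86 and 0.97, and Vars 0.68 and 1.50. Below 0 in all 7 libraries were Qars of the cytosolic genes, at -0.06 to -0.53, and Wars2, Cars2 and Fars2 of the mitochondrial ones, at -0.39 to -1.77, -0.14 to -0.64 and -0.09 to -1.06. Their intervals lay wholly below 0 in 4, 4, 5 and 4 of the 7. Compared with the cycling barcodes of DN3a, the summed log2 ratio of cycling barcodes was 0.49 (0.47 to 0.52) for DN3b γδ−, 0.19 (0.16 to 0.21) for DN4 γδ−, 0.22 (0.19 to 0.24) in DN3b γδ+, -0.30 (-0.33 to -0.27) in DN4 γδ+, 0.24 (0.21 to 0.27) in Lat-KO γδ− and 0.68 (0.65 to 0.71) in Lat-KO γδint. For non-cycling barcodes the same ratios were 0.38 (0.28 to 0.47), 0.28 (0.17 to 0.38), 0.41 (0.31 to 0.51), -0.26 (-0.29 to -0.23), 0.45 (0.42 to 0.48) and 0.84 (0.80 to 0.88), the first 3 libraries having only 97 to 127 such barcodes. In the non-cycling barcodes of those 3 no cytosolic gene was past 2-fold higher in CPM. Of all genes in the same barcodes 10.7%, 14.8% and 13% were. The synthetase with the fewest UMIs had 9, 8 and 11 there. A gene without UMIs in a library was set to 3, which in so few barcodes can put it past 2-fold higher. These shares can include such genes, so they are no measure for the synthetases. The gene counts were not redone with TMM. Under it the cytosolic sums of the same barcodes were 1315, 1226 and 1308 CPM, against 788 in those of DN3a. In the non-cycling barcodes of Lat-KO γδint 8 of 20 were past 2-fold higher in CPM, against 14.8% of all genes.

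**Figure D4:**
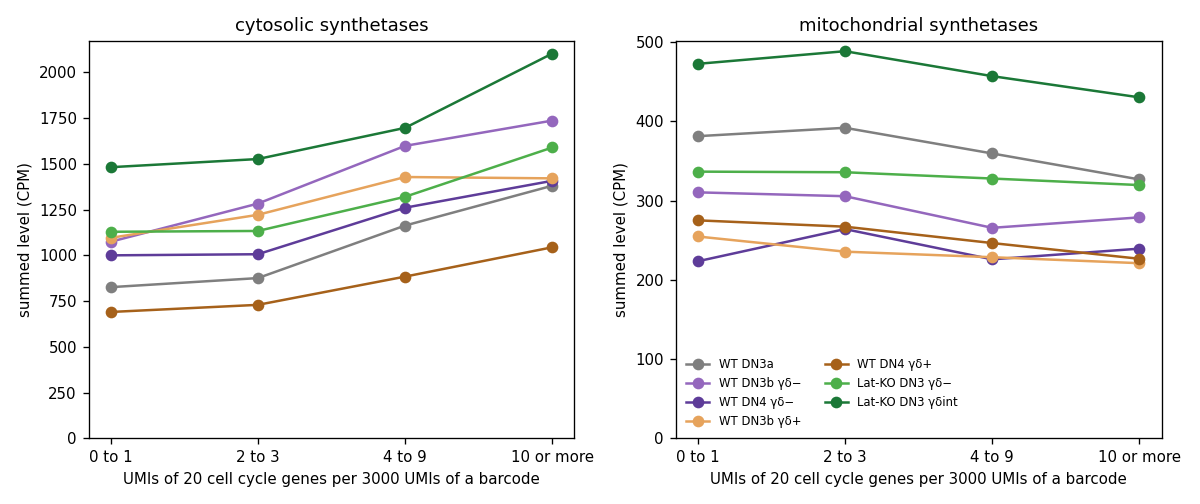
Summed CPM of the 20 cytosolic (left) and 16 mitochondrial (right) synthetases in thymocyte barcodes with at least 3000 UMIs, with 1 line per library. Barcodes are grouped by their UMIs of 20 cell cycle genes out of 3000. The cytosolic lines end higher at 10 or more cycle UMIs than they start at 0 to 1 in all 7 libraries, whereas the mitochondrial lines end lower in 6 of the 7, all but DN4 γδ−; without Lars2 the sum ends lower in 4 of the 7 and higher in DN3a, DN4 γδ− and DN4 γδ+.

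Single barcodes with at least 3000 UMIs were compared at one depth. At 3000 UMIs per barcode, DN3a thymocytes held a mean of 2.62 cytosolic synthetase UMIs with 1 at the 10th and 5 at the 90th percentile, and DN3b γδ− thymocytes 4.97 with 2 and 8. The variance over the mean was 1.11 to 1.24 over the 7 libraries, where pure counting gives 1. At so few UMIs this value is drawn toward 1 by counting, so it says little about the spread between cells.

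The mitochondrial medians lay below the cytosolic ones in each of the 6 comparisons with DN3a, and the differences between the sets were not tested. The mitochondrial median log2 ratio to DN3a was 0.09 for DN3b γδ− (10 of 16 above 0, against 41.5% of all genes), -0.18 in DN4 γδ− (5 of 16 against 35.99%, but 0.18 after TMM), -0.38 in DN3b γδ+ (4 of 16 against 42.0%) and -0.47 in DN4 γδ+ (1 of 16 against 47.5%). After TMM the side of 0 changed for Ears2, Mars2 and Nars2 in DN3b γδ−, for Fars2, Hars2, Iars2, Mars2, Tars2 and Vars2 in DN4 γδ−, and for Mars2 and Tars2 in DN3b γδ+. In the Lat-KO libraries the median was 0.46 in γδ− and 0.73 in γδint, with 14 and 15 of 16 above 0 against 72.0% and 76.0% of all genes and all-gene medians of 0.23 and 0.43, the genes below 0 being Lars2 in both and Mars2 in γδ− at -0.10 (-0.28 to 0.09), and TMM took Iars2 and Yars2 in γδ− and Iars2, Mars2 and Vars2 in γδint below 0 as well. Past 2-fold higher were Sars2 in DN3b γδ− (1 of 16, against 9.65% of all genes), Wars2 in Lat-KO γδ− (1 of 16, against 4.43%), and Pars2 and Fars2 in Lat-KO γδint (2 of 16, against 13.9%), shares near those of all genes, of which Wars2 and Fars2 came under 2-fold after TMM, while Pars2 in DN3b γδ− and Sars2 in DN4 γδ− went past it. In CPM, 11 of the 16 had their highest level in Lat-KO γδint, as had 40.1% of all genes, and 9 their lowest in DN4 γδ+ (17.6%). After TMM these were 1 (6.40%) and 13 (21.9%). DN3b γδ+ over DN3b γδ− had a median of -0.46 with 13 of 16 below 0 (46.8% of all genes lay above 0), and Lat-KO γδint over γδ− one of 0.36 with 13 of 16 above 0 (9 after TMM), against 65.2% of all genes.

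Lars2, the mitochondrial leucine synthetase, had the widest range of the 36 as a fold between libraries, with or without TMM. In thymocytes it stood at 145 for DN3a, 17.8 and 29.4 for DN3b γδ− and DN4 γδ−, 29.3 and 89.5 for DN3b γδ+ and DN4 γδ+, and 16.1 and 57.9 for Lat-KO γδ− and γδint, all in CPM. The spiked B cells of the same libraries had 174, 39.1, 72.1, 139.6, 139, 5.27 and 103 CPM, the last but one from 3 UMIs. Lars2 was high in DN3a and DN4 γδ+ and low in DN3b γδ− and Lat-KO γδ− in both cell types, whereas in DN3b γδ+ it was low in thymocytes and high in B cells. Its log2 ratio of DN3b γδ− to DN3a was -3.02 (-3.07 to -2.97) in thymocytes and -2.16 (-2.90 to -1.45) in B cells.

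Gm42418, a transcript that overlaps the ribosomal RNA repeat and that was looked up after the Lars2 values were seen, had 7003 CPM for DN3a, 519 for DN3b γδ−, 1085 for DN4 γδ−, 1445 for DN3b γδ+, 4913 in DN4 γδ+, 530.5 in Lat-KO γδ− and 2717 in Lat-KO γδint. AY036118, another such transcript, ranged from 24.3 CPM in Lat-KO γδ− to 1219 CPM in DN3a. Both were high and low in nearly the same libraries as Lars2, also in B cells, where Gm42418 ranged from 581 to 11219 CPM. The part of these transcripts in the Lars2 values was not tested.

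With Lars2 the mitochondrial sum was lower in DN3b γδ− than in DN3a, and without it higher. The 16 genes summed to 379 CPM in DN3a and 278 in DN3b γδ−, and the 15 without Lars2 to 234 and 260.1 CPM. Without Lars2 the summed log2 ratio to DN3a was 0.15 (0.12 to 0.18) for DN3b γδ−, -0.16 (-0.19 to -0.13) for DN4 γδ−, -0.27 (-0.30 to -0.24) in DN3b γδ+, -0.47 (-0.50 to -0.43) in DN4 γδ+, 0.44 (0.40 to 0.47) in Lat-KO γδ− and 0.76 (0.73 to 0.80) in Lat-KO γδint. The B cells gave 0.75 (0.22 to 1.30), 0.20 (-0.49 to 0.88), 0.41 (-0.31 to 1.12), 0.24 (-0.35 to 0.84), 0.41 (-0.14 to 0.99) and 0.90 (0.30 to 1.52), from only 31 to 120 UMIs per library.

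**Figure D5:**
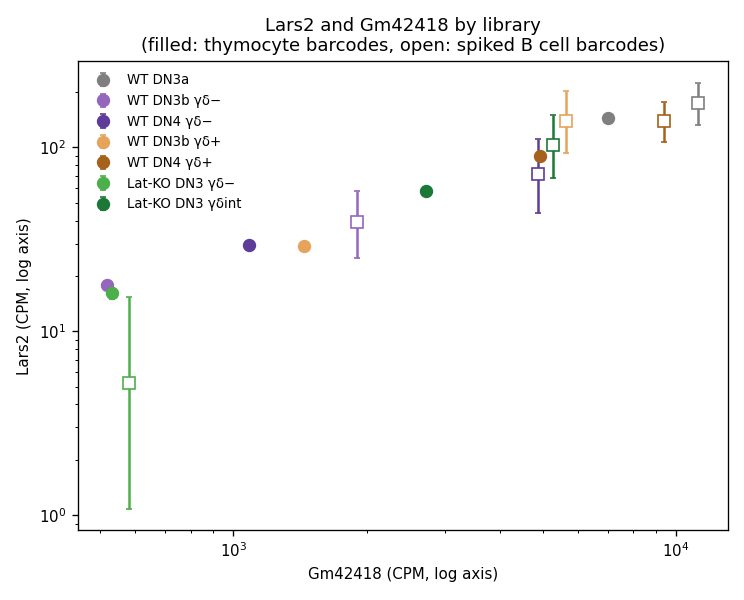
Lars2 against Gm42418 in CPM on log axes, 1 colour per library, filled circles for thymocyte barcodes and open squares for spiked B cell barcodes, with exact 95% Poisson intervals for Lars2. DN3b γδ− and Lat-KO γδ− lie at the lower left and DN3a and DN4 γδ+ at the upper right in both cell types.

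Aars2, Wars2, Sars2 and Cars2 differed from each other in which libraries were high and low. Aars2, for alanine, was at 10.8 CPM for DN3a, 16.03 for DN3b γδ− against 6.26 for DN3b γδ+, 11.99 for DN4 γδ− against 6.49 for DN4 γδ+, and 15.6 for Lat-KO γδ− against 21.2 for Lat-KO γδint. It was past 2-fold lower in DN3b γδ+ than in DN3b γδ− at a log2 ratio of -1.36 (-1.45 to -1.27), the only 1 of the 16 beyond that limit (4.2% of all genes). Wars2, for tryptophan, was at 5.86 CPM in DN3a, 4.25 and 3.23 in the αβ pair DN3b γδ− and DN4 γδ−, 2.20 and 4.58 in the γδ pair DN3b γδ+ and DN4 γδ+, and 11.8 and 10.5 in Lat-KO γδ− and γδint. Its log2 ratio of DN3b γδ+ to DN3a was -1.42 (-1.63 to -1.20), past 2-fold lower together with Lars2 against 19.8% of all genes. Sars2, for serine, was at 6.57 CPM before selection (DN3a), 14.95 then 11.9 along the αβ path (DN3b γδ−, DN4 γδ−), 8.22 then 6.29 along the γδ path (DN3b γδ+, DN4 γδ+), and 12.1 and 11.3 without LAT (γδ−, γδint). It was higher in DN3b γδ− than in DN3a by 1.19 (1.03 to 1.35) on the log2 scale. Cars2, for cysteine, was at 46.8 CPM for DN3a, 35.9 for DN3b γδ− against 25.3 for DN3b γδ+, 24.0 for DN4 γδ− against 24.3 for DN4 γδ+, and 72.4 for Lat-KO γδ− against 80.0 for Lat-KO γδint. The 3 libraries DN4 γδ−, DN3b γδ+ and DN4 γδ+ lay together at the low end for Cars2, and both Lat-KO libraries above DN3a.

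Pars2, Fars2, Tars2, Ears2 and Nars2 were higher in both Lat-KO libraries than in DN3a, as in CPM were all other mitochondrial genes but Lars2 and Mars2. Pars2, for proline, was at 4.54 CPM in DN3a, 8.13 and 5.09 in the αβ pair DN3b γδ− and DN4 γδ−, 5.87 and 3.51 in the γδ pair DN3b γδ+ and DN4 γδ+, and 8.87 and 12.8 in Lat-KO γδ− and γδint. Fars2, for phenylalanine, was at 25.1 CPM before selection (DN3a), 27.0 then 22.3 along the αβ path (DN3b γδ−, DN4 γδ−), 19.4 then 26.4 along the γδ path (DN3b γδ+, DN4 γδ+), and 34.7 and 54.8 without LAT (γδ−, γδint). Both had their widest difference from DN3a in Lat-KO γδint (Pars2 in DN3b γδ− after TMM), at 1.50 (1.27 to 1.73) and 1.12 (1.02 to 1.22). Tars2, for threonine, had 25.1 CPM for DN3a, 32.2 for DN3b γδ− against 24.1 for DN3b γδ+, 24.8 for DN4 γδ− against 17.9 for DN4 γδ+, and 33.6 for Lat-KO γδ− against 49.8 for Lat-KO γδint. Ears2, for glutamate, had 9.01 CPM in DN3a, 7.63 and 6.72 in the αβ pair DN3b γδ− and DN4 γδ−, 6.16 and 4.70 in the γδ pair DN3b γδ+ and DN4 γδ+, and 12.9 and 14.9 in Lat-KO γδ− and γδint. Nars2, for asparagine, had 7.84 CPM before selection (DN3a), 6.40 then 5.60 along the αβ path (DN3b γδ−, DN4 γδ−), 5.84 then 4.34 along the γδ path (DN3b γδ+, DN4 γδ+), and 11.4 and 13.0 without LAT (γδ−, γδint). For Ears2 and Nars2, as for Cars2, DN3a was the highest of the 5 WT libraries, though after TMM DN3b γδ− lay above it for Ears2 and Nars2.

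The last 6, Yars2, Rars2, Iars2, Hars2, Vars2 and Mars2, stayed within 2-fold of DN3a in every library. In CPM so did Aars2, Cars2, Ears2, Nars2 and Tars2. Yars2, for tyrosine, was at 14.9 CPM for DN3a, 19.4 for DN3b γδ− against 21.2 for DN3b γδ+, 21.4 for DN4 γδ− against 12.2 for DN4 γδ+, and 15.8 for Lat-KO γδ− against 24.4 for Lat-KO γδint. Rars2, for arginine, was at 21.3 CPM in DN3a, 25.1 and 24.3 in the αβ pair DN3b γδ− and DN4 γδ−, 26.5 and 17.1 in the γδ pair DN3b γδ+ and DN4 γδ+, and 24.4 and 34.6 in Lat-KO γδ− and γδint. These 2 were the only mitochondrial genes besides Lars2 that were higher in DN3b γδ+ than in DN3b γδ−, at 0.13 (0.07 to 0.18) and 0.08 (0.03 to 0.13). Iars2, for isoleucine, showed 23.7 CPM before selection (DN3a), 29.1 then 19.2 along the αβ path (DN3b γδ−, DN4 γδ−), 18.4 then 17.3 along the γδ path (DN3b γδ+, DN4 γδ+), and 23.8 and 24.7 without LAT (γδ−, γδint). Hars2, for histidine, showed 13.9 CPM for DN3a, 14.6 for DN3b γδ− against 10.7 for DN3b γδ+, 12.3 for DN4 γδ− against 12.2 for DN4 γδ+, and 19.0 for Lat-KO γδ− against 23.0 for Lat-KO γδint. Vars2, for valine, ranged over 9.27 CPM in DN3a, 9.67 and 7.33 in the αβ pair DN3b γδ− and DN4 γδ−, 6.49 and 6.63 in the γδ pair DN3b γδ+ and DN4 γδ+, and 12.2 and 10.4 in Lat-KO γδ− and γδint. Mars2, for methionine, ranged over 9.70 CPM before selection (DN3a), 9.63 then 9.33 along the αβ path (DN3b γδ−, DN4 γδ−), 7.85 then 5.56 along the γδ path (DN3b γδ+, DN4 γδ+), and 9.06 and 12.4 without LAT (γδ−, γδint). In DN4 γδ+ all 6 were lower than in DN3a, Mars2 most at -0.80 (-0.997 to -0.61).

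Other genes of the charging pathway were taken from lists set by their roles. Of the complex scaffolds, Aimp2 had log2 ratios to DN3a of 1.07 (1.004 to 1.14) in DN3b γδ−, 1.01 (0.94 to 1.08) in DN4 γδ− and 1.32 (1.23 to 1.40) in Lat-KO γδint, past 2-fold in each but not after TMM in Lat-KO γδint, whereas Aimp1 and Eef1e1 were at 0.41 and 0.05 in DN3b γδ−. The amidotransferase and formylase genes Qrsl1, Gatb, Gatc and Mtfmt, which finish mitochondrial glutamine and initiator methionine tRNAs, were at 0.95 (0.82 to 1.07), 0.74 (0.57 to 0.91), 0.49 (0.36 to 0.63) and 0.43 (0.30 to 0.55) in DN3b γδ−, and none of these 4 was past 2-fold there, though Qrsl1 and Gatb were after TMM. The mitochondrial elongation factors Tufm, Tsfm and Gfm1 were at 1.16 (1.09 to 1.23), 0.53 (0.47 to 0.59) and 1.16 (1.05 to 1.26) in DN3b γδ−. Of all genes 9.65%, 7.81% and 13.9% were past 2-fold higher in DN3b γδ−, DN4 γδ− and Lat-KO γδint. After TMM the share was 17.4% in DN3b γδ− and 4.7% in Lat-KO γδint.

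Cytosolic elongation factors showed a median of 0.26 in DN3b γδ−, with Eef1d at 0.998 and Eef2 at 0.96 the highest of 5 and none past 2-fold, though both were after TMM. Of the tRNA maturation and export genes Trnt1, Elac2, Rtcb, Nsun2 and Xpot, Nsun2, a tRNA methyltransferase, was past 2-fold higher in DN3b γδ− at 1.41 (1.36 to 1.46) and in Lat-KO γδint at 1.43 (1.37 to 1.48), and the other 4 were not, except Elac2 in DN3b γδ− after TMM. Xpot, the tRNA exporter, was at 0.39 in DN3b γδ− and -0.85 in DN4 γδ+. The shares of all genes past 2-fold higher were 9.65% in DN3b γδ− (17.4% after TMM) and 13.9% in Lat-KO γδint.

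Of the 11 genes of the amino acid response list, 9 passed the minimum, and in DN3b γδ− 3 were past 2-fold higher, against 9.65% of all genes, and 2 past 2-fold lower, near the 20.9% of all genes. Mthfd2, Psat1 and Shmt2, enzymes of serine and one-carbon metabolism, were at 2.27 (2.19 to 2.36), 2.08 (1.9998 to 2.15) and 2.02 (1.95 to 2.09). Slc7a11, the cystine transporter, and Ddit3, a stress-induced transcription factor, were at -2.85 (-3.20 to -2.50) and -1.22 (-1.30 to -1.15), the latter within 2-fold after TMM. Atf4 transcript was near level, at -0.12 in DN3b γδ−, -0.03 in DN4 γδ− and 0.11 in DN3b γδ+. Asns, the asparagine synthetase that makes rather than charges the amino acid, was at 1.45 (1.15 to 1.76) in DN3b γδ+ and -2.71 (-3.64 to -1.90) in Lat-KO γδ−.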

How the data were processed

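Single-cell 3′ UMI counts of 7 libraries were analysed, each a matrix of counts as deposited by the authors, who aligned reads with Cell Ranger to mm10 with the Trdc-H2BEGFP reporter added. The file headers name Cell Ranger 4.0.0 and the submitters' processing notes 5.0.1, with R 3.6.3 and Seurat 3.1.5. Barcodes with at least 200 genes and under 15% mitochondrial UMIs were kept. The study excluded doublets by scatter during sorting, and no doublet caller was run here. Thymocyte barcodes had at most 1 UMI of 3 B cell genes, and B cell barcodes at least 10 UMIs of these and at most 1 of Cd3d, Cd3e and Cd3g. UMIs were summed and divided by the library total to give CPM, and 11296 genes with a mean of at least 1 CPM were compared, a gene counting as past the limit at 2-fold. Intervals are exact 95% conditional binomial (ratios) or Poisson (levels) intervals and cover counting error only, at 37820685 thymocyte UMIs or more per library. The ratio code was checked on simulated data. All 36 members are named with their CPM, other genes come from lists (scaffolds, elongation factors, tRNA maturation, amino acid response, cell type and cell cycle markers), and Gm42418 and AY036118 were added after values were seen. Members and lists were chosen with earlier results of these data known. Promoters came from RefSeq. Some items are not reported here. Tools were edgeR 4.0.16 (TMM factors only) in R 4.3.3, and scipy 1.17.1, numpy 2.4.6, pandas 2.3.3 and matplotlib 3.10.9 in Python 3.11.15.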

Additional observations from a re-analysis of the deposited data

How the results depend on the processing

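The medians were recomputed with TMM scaling, without a minimum CPM, with a minimum mean of 20 CPM, without the quality filter on barcodes, with a T cell marker required, without the 8% of barcodes with the most UMIs, in non-cycling barcodes only and, chosen after the data were seen, without Lars2. No replicate could be left out, since each group is 1 library. No paired analysis was possible because no group has a second library and the labels give no replicate numbers. Each value was set against the medians of the lower and upper gene interval ends of its main result. Of the values so obtained 95 lay between those ends, 23 lay outside them and 2 changed sign. The intervals of the new values were not used for this count. TMM changed the cytosolic medians to DN3a to 1.24 for DN3b γδ−, 1.07 for DN4 γδ−, 1.04 in DN3b γδ+, 0.37 in Lat-KO γδ− and 0.63 in Lat-KO γδint, and that of Lat-KO γδint over γδ− to 0.28. The mitochondrial medians became 0.45 in DN3b γδ−, 0.18 in DN4 γδ−, where the sign changed, -0.052 in DN3b γδ+, 0.29 in Lat-KO γδ−, 0.31 in Lat-KO γδint and 0.11 for γδint over γδ−. In non-cycling barcodes the cytosolic medians over DN3a were 0.36, 0.19 and 0.43 for DN3b γδ−, DN4 γδ− and DN3b γδ+. The medians of their gene interval ends were -0.10 and 0.86, -0.31 and 0.81, and -0.16 and 0.87, on both sides of 0. For DN4 γδ+ and Lat-KO γδint the medians over DN3a were -0.21 and 0.94, and for the Lat-KO pair 0.33. The sign changed for DN3b γδ+ over DN3b γδ−, at 0.22, where the gene interval ends had medians of -0.59 and 0.90. The mitochondrial median of DN4 γδ− was -0.34. Leaving out the 8% deepest barcodes gave 0.97, 0.80 and 0.79 for the cytosolic genes in DN3b γδ−, DN4 γδ− and DN3b γδ+. A minimum of 20 CPM left 6 mitochondrial genes, with medians of 0.31 in Lat-KO γδ− and 0.54 for γδint over γδ−. The cause of these shifts was not tested. Cytosolic genes past 2-fold higher than DN3a numbered 9, 1, 3 and 11 of 20 in DN3b γδ−, DN4 γδ−, DN3b γδ+ and Lat-KO γδint. They numbered 16, 11, 10 and 3 with TMM, and 0, 0, 0 and 8 in non-cycling barcodes without TMM. Without the deepest barcodes they were 10, 3 and 5 in the first 3 libraries (all genes 11.3%, 9.24% and 12.7%). Each group is 1 library, so differences between replicates are not covered. The B cell values rest on 31 to 565 UMIs per set, and on 3 to 66 for Lars2 alone, and the non-cycling values of DN3b γδ−, DN4 γδ− and DN3b γδ+ on 97 to 127 barcodes.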

Other observations

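Beyond the synthetases, some genes of the lists above are named here for the DN3b pair and the Lat-KO pair of libraries. They were picked from the lists, and the other listed genes are not counted. DN3b γδ+ was lower than DN3b γδ− for Eef2, the translocation factor of the ribosome, at a log2 ratio of -0.94 (-0.95 to -0.93), for Nsun2 at -0.90 (-0.92 to -0.88), for Shmt2 at -0.88 (-0.91 to -0.85) and for Elac2, which trims the 3′ ends of tRNA precursors, at -0.82 (-0.88 to -0.76). In the same comparison Asns was higher, at 0.82 (0.69 to 0.95), and Tsfm at 0.45 (0.42 to 0.48). None of these 6 was past 2-fold.

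Lat-KO γδint was past 2-fold higher than Lat-KO γδ− for Asns at 1.73 (0.80 to 2.74), for the elongation factor subunit Eef1g at 1.34 (1.32 to 1.36) and for the scaffold Aimp2 at 1.05 (0.97 to 1.13). Of all genes 5.23% were past this limit, which cannot be set against these genes because the rest of the lists is not counted here. The intervals of Asns and Aimp2 reached both sides of it, and Aimp2 came under 2-fold after TMM. Eef2 at -0.05 (-0.07 to -0.04) and Tufm at -0.02 (-0.11 to 0.06) were near level. All intervals cover counting error only, each group is 1 library, and the differences were not tested.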
